A study of Mus musculus with 12 samples.

Results

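A set of 7 genes of antigen presentation on major histocompatibility complex (MHC) class II was followed across RNA-seq libraries of mouse cells sorted as hematopoietic stem cells (HSCs). They are H2-Aa, H2-Ab1, H2-Eb1, Cd74, H2-DMa, H2-DMb1 and Ciita, chosen by name, and they make up 7 of the 31272 gene names in the deposited tables. Each name stood on a single row, and 6 of the 7 reached 1 FPKM (fragments per kilobase of transcript length, relative to all mapped fragments of the library) in at least 3 libraries, Ciita being the exception. The 12 libraries came from bone marrow of wild-type mice, in 4 groups of 3. The strain was C57BL/6, as the methods give it. Ctrl mice were not irradiated. IR, Ab_IR and L_IR mice all received ionizing radiation, and their cells were collected 3 days later. The radiation was given to the whole body at a sublethal dose. Ab_IR and L_IR carry a further treatment that the labels abbreviate as Ab and L without spelling it out, and the ages of the mice are not given in the sources used here. The libraries of every group are titled as HSCs. For flow analysis the methods give the HSC gate as Lineage- Sca-1+ c-Kit+ Flt3- CD34-, with CD3e, B220, Gr-1, Mac-1 and Ter-119 in the lineage mix. For isolation they name a lineage depletion cocktail, and they do not describe the Ab and L groups. That every group was sorted through this same gate is therefore assumed here. The labels do not say that the 3 replicates of a group are separate mice, so p-values measure only the spread between these samples.

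MHC class II molecules are pairs of an alpha and a beta chain that carry peptides of ingested proteins to the cell surface, where CD4+ T cells read them. The invariant chain, encoded by Cd74, fills the groove during assembly and is cut away by cathepsins, and the H2-DM heterodimer then exchanges its last fragment, CLIP, for a peptide. Dendritic cells, B cells and macrophages are the professional users of this pathway, and stem and progenitor cells of the marrow can also carry class II. CIITA, the class II transactivator, does not bind DNA itself but docks on factors that sit at a conserved promoter module: RFX at the X box, CREB-type factors at the neighbouring X2 box and NF-Y at the Y box.

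Promoter windows from RefSeq (GRCm38.p6, 250 bases before to 50 after a start) matched 4 of the 7 genes. They were searched for GCAAC (an X box core), TGACG (an X2 core) and CCAAT (the Y box core), each on both strands, and for GCAAC followed on the same strand by ATTGG, the reverse complement of CCAAT, with 15 to 40 bases between. Single cores were common, GCAAC standing in 35.2%, TGACG in 20.8% and CCAAT in 37.4% of the 32851 windows, whereas the ordered pair stood in 1.24%. H2-Aa and H2-Eb1 hold the ordered pair, at 28 and 27 bases between, and so do the neighbouring class II genes H2-Ob, H2-Oa and H2-Eb2. The stretches of H2-Aa, H2-Eb1, H2-Ob (25 bases between) and H2-Eb2 (27) show the ordered pair, with the motif letters in capitals and 10 bases on either side; in H2-Aa the capitals after the X core are TGACG and its overlapping copy on the other strand.
H2-Aa (chr17:34287857-34287914, minus): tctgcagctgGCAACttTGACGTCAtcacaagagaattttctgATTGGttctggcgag
H2-Eb1 (chr17:34305766-34305822, plus): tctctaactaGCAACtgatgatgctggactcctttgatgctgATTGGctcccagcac
H2-Ob (chr17:34238808-34238862, plus): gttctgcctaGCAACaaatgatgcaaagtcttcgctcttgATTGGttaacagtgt
H2-Eb2 (chr17:34325533-34325589, plus): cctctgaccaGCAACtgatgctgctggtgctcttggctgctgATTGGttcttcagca

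The H2-DMb1 window has no GCAAC. Its letters at the matching place were searched with GNAAC, an alternative added after the window was seen, which with ATTGG in the same arrangement stands in 4.23% of windows. The first part of that module is printed alone because the annotation places it in an exon.
H2-DMb1 (chr17:34153087-34153111, plus): ggtttacctaGTAACtgatgatgct
The ATTGG of H2-DMb1 follows 28 bases after this core. Neither of the 2 H2-DMa windows holds the ordered pair in either form, although each has 1 single core, GCAAC in one and CCAAT in the other. These are matches of letters, and the sites were not measured here.

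In GENCODE M21 (GRCm38), 5 of the genes lay within 197.1 kb of chromosome 17, between H2-DMa at 34119541 and the end of H2-Eb1 at 34316674. In order they were H2-DMa (34119541 to 34139101, plus strand), H2-DMb1 (34153072 to 34160230, plus), H2-Ab1 (34257689 to 34269419, plus), H2-Aa (34282744 to 34287823, minus) and H2-Eb1 (34305867 to 34316674, plus). Ciita lay on chromosome 16 (10480059 to 10528418, plus) and Cd74 on chromosome 18 (60803848 to 60812652, plus).

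All values below are FPKM as deposited, a length-scaled level that can be compared between genes, and the read depth behind them is unknown. Between 11467 and 12167 rows per library reached 1 FPKM. Immunoglobulin genes held 9.0% to 11.1% of the summed FPKM in Ctrl and 17.2% to 18.0% in IR. Their share was 13.5% to 14.3% in Ab_IR and 21.9% to 22.6% in L_IR, so it differed by group. In Ctrl replicate 1 the value was 0 on 44.1% of rows, a share that ran from 24.7% to 27.3% elsewhere. The IR libraries and Ctrl replicates 2 and 3 held 51.2 to 63.9 FPKM of the heart transcript Nppa, which was at 0 to 0.26 in Ctrl replicate 1, Ab_IR and L_IR. A batch behind this split and the differences between IR and Ab_IR or L_IR therefore cannot be told apart, except through Ctrl replicate 1. Differences were tested with limma on log2(FPKM + 1) over all genes reaching 1 FPKM in 3 or more of the libraries fitted. A gene is called where its Benjamini-Hochberg adjusted p is under 0.05 and its absolute log2 fold change above 1; passing on the adjusted p alone is given separately. Fold changes on this scale understate the change of low genes.

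After irradiation the genes of the class II dimer and of its peptide exchange factor fell together, while the invariant chain gene Cd74 did not pass the test (-0.12 on the log2 scale, limma adjusted p = 0.123). In IR the mean levels of H2-Aa, H2-Ab1, H2-Eb1, H2-DMa and H2-DMb1 were 26.5% to 37.9% of the Ctrl means, against 92.2% for Cd74. Of the 6 genes tested, 5 were called lower and 0 higher, beside 4.57% of 12072 genes called lower in this comparison. For all 6 the IR libraries lay below every Ctrl library, beside 32.8% of genes that lay without overlap in that direction. The median log2 fold change of the 6 was -1.30, against -0.05 over all genes tested.

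H2-Aa encodes the alpha chain of the I-A molecule. It was listed at 9.74, 12.55 and 11.88 FPKM in Ctrl and at 2.47, 3.12 and 3.46 in IR. It stood at 10.89, 9.70 and 9.88 in Ab_IR and at 11.68, 13.02 and 11.47 in L_IR. The IR libraries were the lowest 3 of the 12, and the other groups ran close together, Ab_IR lying below L_IR without overlap. H2-Aa fell in IR by 1.63 on the log2 scale (SE 0.13, adjusted p = 2.34e-04) and was higher in Ab_IR than in IR by 1.48 (SE 0.10, adjusted p = 1.03e-05). In L_IR it exceeded IR by 1.71 (SE 0.10, adjusted p = 7.77e-06).

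H2-Ab1 encodes the I-A beta chain. Its levels were 9.46, 14.99 and 14.38 FPKM in Ctrl, 4.22, 5.01 and 5.0 in IR, 9.89, 11.11 and 8.32 for Ab_IR and 12.02, 12.79 and 13.19 for L_IR. Ctrl replicate 1 lay among the Ab_IR libraries, whereas the other Ctrl libraries were the highest of the 12. H2-Ab1 fell in IR by 1.26 (SE 0.17, adjusted p = 0.00197). It was higher in L_IR than in IR by 1.25 (SE 0.07, adjusted p = 5.54e-06). In Ab_IR the difference from IR was 0.90 (SE 0.10, adjusted p = 1.82e-04), short of the fold limit. It passed that limit with a term for the Nppa split (1.49), with a pseudocount of 0.1 (1.02) and without Ab_IR replicate 3 (1.003).

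H2-Eb1 encodes the beta chain of the I-E molecule and was the most abundant of the 3 chain genes. Ctrl libraries listed it at 16.65, 18.78 and 18.50 FPKM and IR libraries at 6.20, 6.68 and 6.47. Ab_IR stood at 15.14, 14.32 and 13.67 and L_IR at 20.95, 19.09 and 21.07. None of the 4 groups overlapped, in the order IR, Ab_IR, Ctrl and L_IR. The fall in IR was by 1.35 (SE 0.07, adjusted p = 5.03e-05), and the rise over IR was 1.04 in Ab_IR (SE 0.05, adjusted p = 2.58e-06) and 1.52 in L_IR (SE 0.05, adjusted p = 6.20e-07). The Ab_IR rise of H2-Eb1 dropped below the fold limit under other scalings, to 0.91 with immunoglobulin genes left out.

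**Figure D1:**
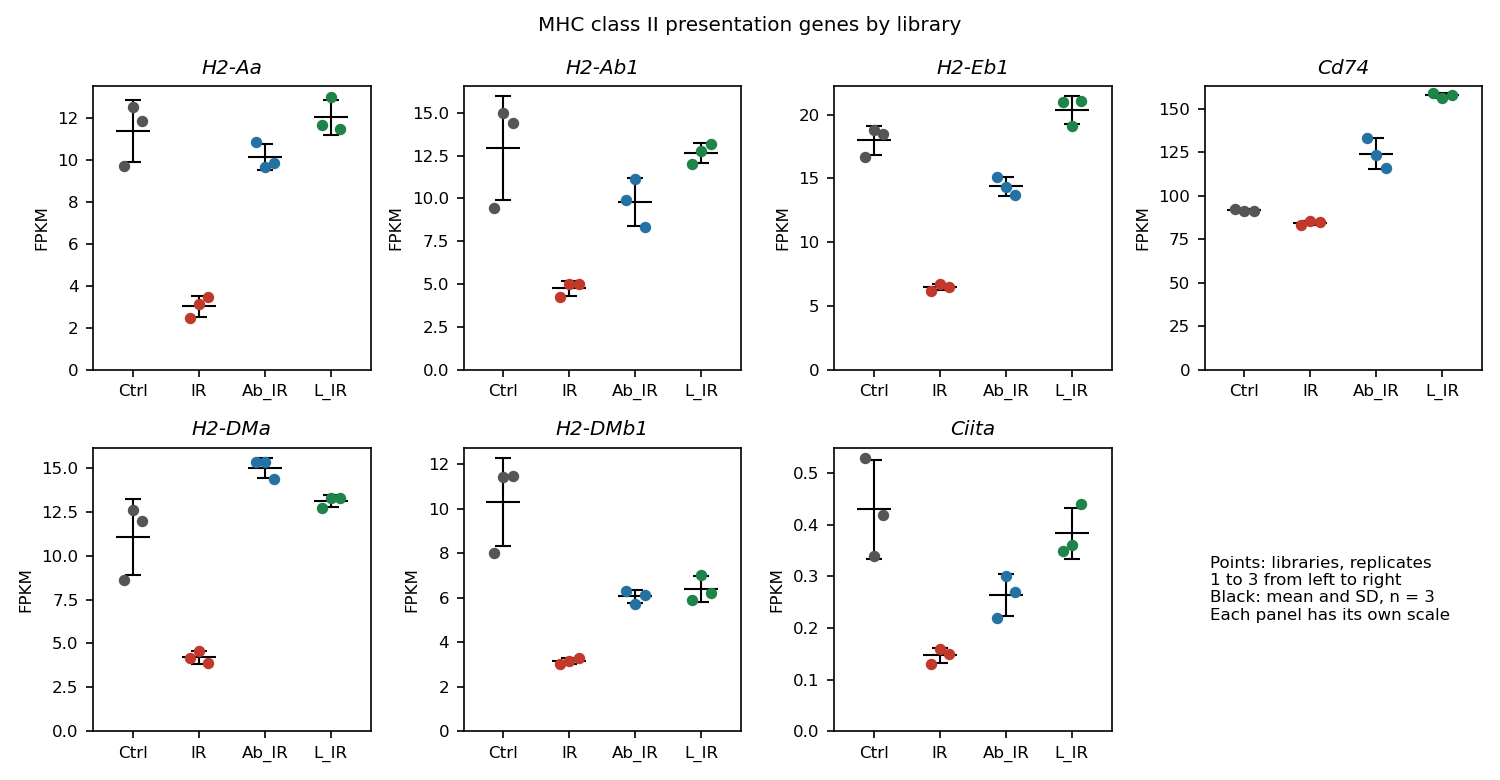
FPKM of the 7 genes in each of the 12 libraries, on a linear axis that starts at 0 and differs between panels, with points for libraries and black marks for the mean and SD (n = 3). The IR libraries are the lowest of the 12 for all 7 genes, by a small distance for Cd74 (83.1 to 85.4 against 91.0 to 92.6 in Ctrl) and a large one for H2-Aa (2.47 to 3.46 against 9.74 to 12.6).

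Cd74 was the most abundant of the 7 in every library. It was listed at 92.62, 91.16 and 90.99 FPKM in Ctrl, at 83.10, 85.40 and 84.75 in IR, at 133.39, 123.48 and 115.88 for Ab_IR and at 159.27, 156.00 and 157.93 for L_IR. The 4 groups did not overlap, in the order IR, Ctrl, Ab_IR and L_IR. The difference between IR and Ctrl was -0.12 on the log2 scale (95% interval -0.24 to 0.01, adjusted p = 0.123), which passed the test on Ctrl replicates 2 and 3 alone (-0.11, adjusted p = 0.0438) and with quantile normalization (-0.24, adjusted p = 0.0206). Cd74 was higher than in IR by 0.55 in Ab_IR (SE 0.05, adjusted p = 7.30e-05) and by 0.89 in L_IR (SE 0.02, adjusted p = 2.07e-07), both short of the fold limit.

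H2-DMa and H2-DMb1 encode the 2 chains of the H2-DM peptide exchange factor. Both were lower in IR than in Ctrl, but in Ab_IR and L_IR they lay on opposite sides of Ctrl. H2-DMa was listed at 8.62, 12.60 and 11.99 FPKM in Ctrl and at 4.18, 4.55 and 3.86 in IR. It reached 15.34, 15.35 and 14.37 in Ab_IR and 12.72, 13.29 and 13.31 in L_IR, above every Ctrl library. H2-DMb1 went from 8.01, 11.42 and 11.49 in Ctrl to 3.00, 3.16 and 3.29 in IR. It reached 6.32, 5.74 and 6.14 in Ab_IR and 5.88, 7.03 and 6.22 in L_IR, below every Ctrl library. H2-DMa was called lower in IR (-1.20, SE 0.14, adjusted p = 0.00113) and higher than IR in both Ab_IR (1.63, SE 0.06, adjusted p = 7.50e-07) and L_IR (1.44, SE 0.05, adjusted p = 1.23e-06). H2-DMb1 was called lower in IR (-1.43, SE 0.14, adjusted p = 4.86e-04), and its rise over IR passed on the adjusted p alone, being 0.77 for Ab_IR (adjusted p = 1.40e-05), with 0.83 for L_IR (adjusted p = 3.87e-05). With a term for the Nppa split these values were 1.23 and 1.29, past the fold limit. H2-DMb1 has a near-identical neighbour, H2-DMb2, with which reads may be shared, so its level is uncertain to that extent.

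Ciita encodes the transactivator of the pathway and stayed under 1 FPKM in all 12 libraries. It was listed at 0.53, 0.34 and 0.42 FPKM in Ctrl, at 0.13, 0.16 and 0.15 in IR, at 0.22, 0.30 and 0.27 for Ab_IR and at 0.35, 0.36 and 0.44 for L_IR. The order of the group means, IR, Ab_IR, L_IR and Ctrl, placed the 3 IR libraries lowest without overlap, while L_IR lay within the range of Ctrl. The low-value filter left Ciita untested. Fitted without that filter, Ciita differed between IR and Ctrl by -0.32 (limma, adjusted p = 0.0216), between Ab_IR and IR by 0.14 (adjusted p = 0.0221) and between L_IR and IR by 0.27 (adjusted p = 0.00279), on a scale where the pseudocount of 1 exceeds the level of Ciita in every library.

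Both further irradiated groups stood above IR for every tested gene. In Ab_IR against IR, 3 of the 6 were called higher (H2-Aa, H2-Eb1 and H2-DMa), beside 5.11% of 12067 genes. All 6 passed on the adjusted p alone, which 39.4% of genes did in that direction, and all 6 lay without overlap, beside 41.4%. In L_IR against IR, 4 of the 6 were called higher, H2-Ab1 being added, beside 4.09% of 12163 genes. Again all 6 passed on the adjusted p alone, beside 40.8%, and lay without overlap, beside 43.1%. Median log2 fold changes of the 6 were 0.97 in Ab_IR and 1.35 in L_IR, against 0.06 and 0.07 over all genes tested. The 2 comparisons share the IR libraries.

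The direct comparison of Ab_IR with L_IR gave small differences. By both criteria 0 of the 6 were called (limma), beside 0.533% of 12194 genes, and 5 had an unadjusted p under 0.05. On the adjusted p alone H2-DMa was higher in Ab_IR (beside 18.2% of genes), by 0.18 (adjusted p = 0.0140). H2-Eb1 (-0.47, adjusted p = 8.14e-04), Cd74 (-0.34, adjusted p = 0.00268), H2-Ab1 (-0.35, adjusted p = 0.0224) and H2-Aa (-0.23, adjusted p = 0.0270) were lower in Ab_IR, beside 19.8% of genes. H2-DMb1 did not pass, at -0.06 (95% interval -0.22 to 0.10, adjusted p = 0.515). H2-Eb1 and Cd74 passed on the adjusted p alone under every alternative run, while H2-Aa did so in 8 of 15, and H2-Ab1 and H2-DMa in 11 of 15 each. H2-Aa missed without L_IR replicate 1 (adjusted p = 0.0508), L_IR replicate 2 (0.0781), Ab_IR replicate 2 (0.0803) or Ab_IR replicate 3 (0.0721). H2-Ab1 missed without L_IR replicate 2 (adjusted p = 0.0623) or L_IR replicate 3 (0.0735), and H2-DMa without L_IR replicate 1 (0.0541). H2-DMa also shrank to 0.05 (adjusted p = 0.525) with immunoglobulin genes left out.

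Against Ctrl, the group means in Ab_IR and L_IR came to 58.9% and 61.9% for H2-DMb1, 75.5% and 97.9% for H2-Ab1, 80.0% and 113% for H2-Eb1, and 89.2% and 106% for H2-Aa. For H2-DMa they were 136% and 118%, and for Cd74 136% and 172%. By both criteria 0 of the 6 were called in either comparison (limma), beside 0.923% of 12134 genes for Ab_IR and 2.65% of 12251 for L_IR. An unadjusted p under 0.05 was reached by 4 and 2 of them. Cd74 alone passed on the adjusted p, by 0.43 in Ab_IR (adjusted p = 0.0486, beside 1.45% of genes higher) and by 0.78 in L_IR (adjusted p = 4.84e-04, beside 4.76%). H2-DMa missed at 0.42 in Ab_IR (adjusted p = 0.174) and 0.24 in L_IR (0.327). It passed in 2 of 16 alternatives for Ab_IR (0.27 to 0.74 over all of them) and 1 of 16 for L_IR (0.09 to 0.55). The Ab_IR value of Cd74 kept that call in 4 of 16 alternatives and lost it, among others, without Ab_IR replicate 1 (0.38, adjusted p = 0.206), Ab_IR replicate 2 (0.44, 0.252), Ab_IR replicate 3 (0.48, 0.132), Ctrl replicate 2 (0.43, 0.0935) or Ctrl replicate 3 (0.43, 0.139), while the L_IR value kept it in all 16.

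Ctrl replicate 1, the library that stands apart, set part of the outcome against Ctrl. Without it H2-DMb1 passed as lower than Ctrl, at -0.82 in Ab_IR (adjusted p = 8.24e-04 against 0.0770 with it) and -0.76 in L_IR (0.00132 against 0.0539). Also without it H2-Eb1 (-0.35, adjusted p = 0.0283 against 0.125) and H2-Ab1 (-0.55, adjusted p = 0.0380 against 0.302) passed as lower in Ab_IR than in Ctrl. H2-Aa (95% interval -0.17 to 0.33) and H2-Ab1 (-0.40 to 0.39) did not differ detectably between L_IR and Ctrl. The fall in IR was as large on Ctrl replicates 2 and 3 alone, which share the Nppa signal with IR, with H2-Aa at -1.73, H2-DMb1 at -1.59, H2-Ab1 at -1.45, H2-Eb1 at -1.40 and H2-DMa at -1.36.

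**Figure D2:**
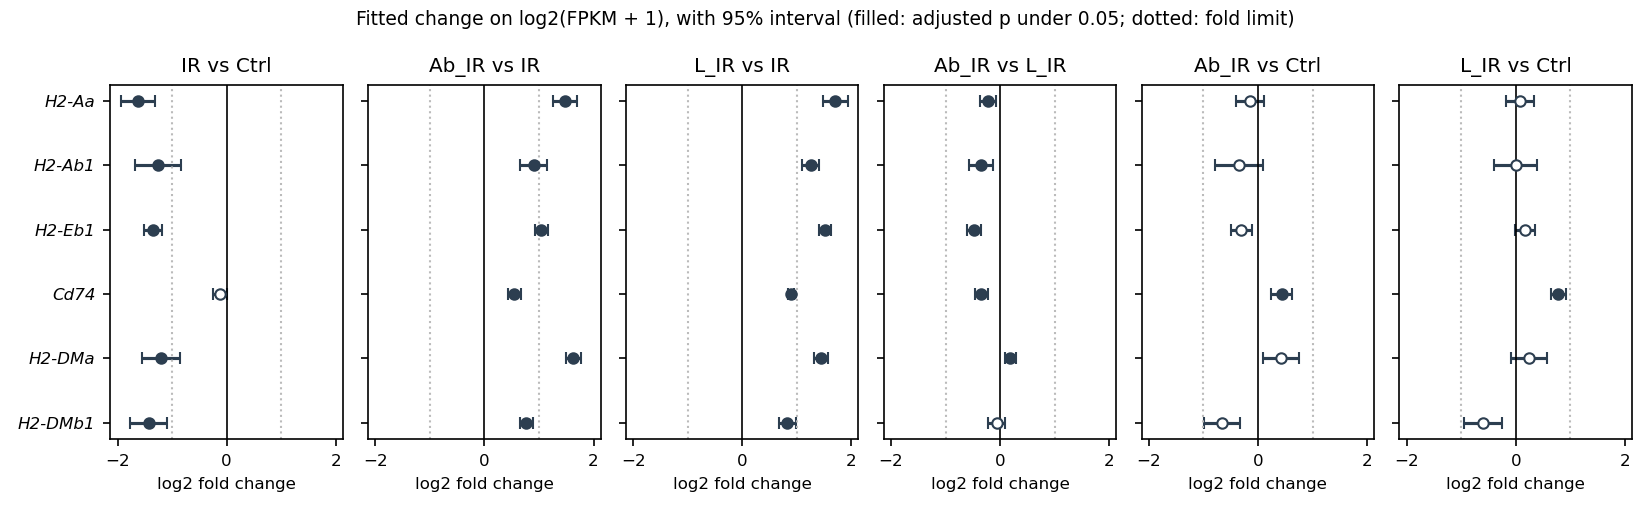
Fitted log2 fold changes of the 6 tested genes in 6 comparisons with 95% intervals, filled where the adjusted p is under 0.05, with dotted lines at the fold limit of 1 in either direction. H2-Aa, H2-Ab1, H2-Eb1, H2-DMa and H2-DMb1 lie left of -1 in IR vs Ctrl and Cd74 sits at -0.12, all 6 lie right of 0 in Ab_IR vs IR and L_IR vs IR, and in Ab_IR vs Ctrl and L_IR vs Ctrl only Cd74 is filled.

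Ratios within a library show how the genes moved against each other and are free of library scaling. Cd74 stood at 9.79, 6.08 and 6.33 times H2-Ab1 in Ctrl and at 19.7, 17.05 and 16.95 times in IR. In Ab_IR the ratio was 12.8 ± 1.51 and in L_IR 12.5 ± 0.68 (mean ± SD, n = 3), between the other groups and without overlapping either. H2-DMa over H2-DMb1 was 1.07 ± 0.03 in Ctrl, 1.34 ± 0.14 in IR, 2.48 ± 0.17 for Ab_IR and 2.06 ± 0.15 for L_IR, with no overlap between any of the 4 groups. H2-Aa over H2-Ab1 was 0.90 ± 0.11 in Ctrl and lowest in IR, at 0.63 ± 0.05, while H2-Eb1 over H2-Ab1 overlapped between IR and Ctrl (1.37 ± 0.09 and 1.43 ± 0.28). Two-sided exact permutation tests of the log2 ratio, 3 libraries against 3, cannot go below p = 0.10. That smallest value was given for the IR against Ctrl difference of Cd74 over H2-Ab1 (1.31 on the log2 scale), of H2-DMa over H2-DMb1 (0.31) and of H2-Aa over H2-Ab1 (-0.50). Adjusted over the 24 ratio tests it became 0.16, so none of these passes.

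**Figure D3:**
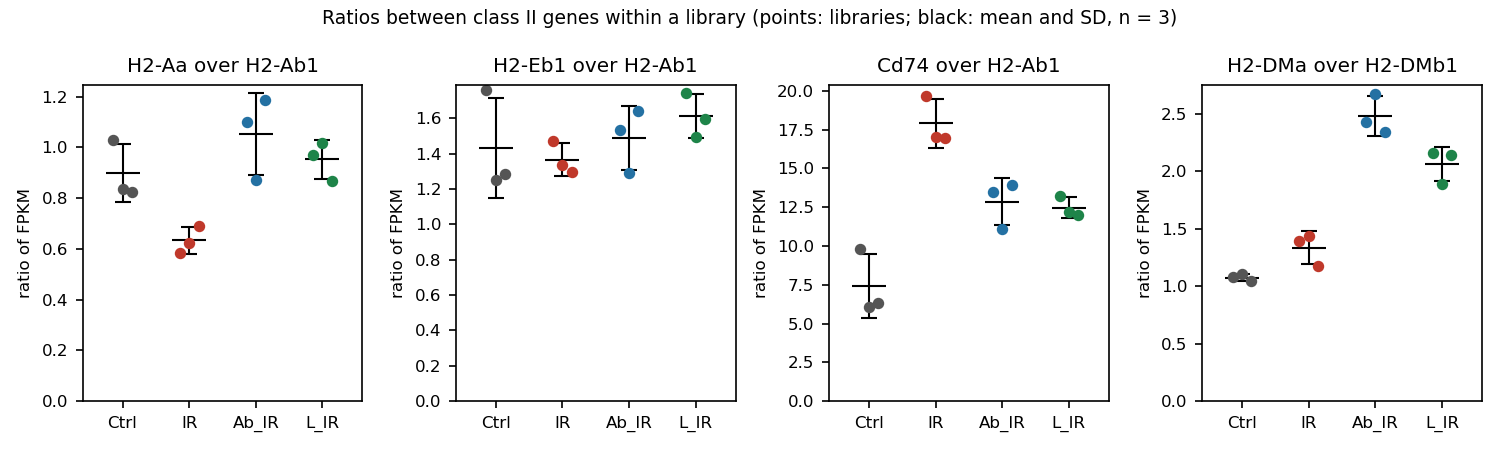
Ratio of the FPKM of gene pairs in each library, on linear axes from 0, with black marks for the mean and SD (n = 3). Cd74 over H2-Ab1 is highest in IR (16.95 to 19.7) and lowest in Ctrl (6.08 to 9.79), and H2-DMa over H2-DMb1 is highest in Ab_IR (2.34 to 2.67).

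The remaining class II genes of the locus were looked at as a list of 5, namely H2-Oa and H2-Ob (the chains of H2-DO, which holds back H2-DM), H2-DMb2, H2-Eb2 and H2-Ea, the partner chain of H2-Eb1. In IR against Ctrl 2 of the 4 tested were called lower and 0 higher, beside 4.57% and 3.03% of all genes. They were H2-Ob (1.90 to 0.36 FPKM in the means, -1.09, adjusted p = 3.39e-04) and H2-Ea (-1.16, adjusted p = 0.00164). H2-Eb2 stayed under 1 FPKM in all libraries and was not tested. It was listed at 0.37, 0.30 and 0.33 FPKM in Ctrl and at 0.61, 0.60 and 0.44 in IR, without overlap and opposite to H2-Aa, and at 0.19 to 0.26 in Ab_IR and 0.40 to 0.54 in L_IR. H2-Ea was called higher than in IR, by 1.58 for Ab_IR (adjusted p = 1.76e-05), with 1.84 for L_IR (adjusted p = 1.15e-05), and all 4 passed as higher on the adjusted p alone in both, as did 39.4% and 40.8% of all genes tested. H2-Oa rose over IR more in Ab_IR than in L_IR, the difference between these 2 groups being 0.40 (adjusted p = 0.00153).

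H2-Ea is annotated as H2-Ea-ps, a polymorphic pseudogene (chr17:34341959-34344645, minus), and mice of the C57BL/6 background are known to lack its promoter and to make neither its transcript nor the I-E alpha chain. Its row was listed at 8.45, 11.90 and 9.85 FPKM in Ctrl, at 3.15, 4.29 and 4.40 in IR, at 15.25, 12.52 and 13.50 for Ab_IR and at 17.90, 17.20 and 14.95 for L_IR. The level is thus of the order of H2-Aa, and IR is again lowest without overlap. Neither the H2 haplotype of the mice nor the origin of the reads on this row, such as reads shared with other genes, was tested.

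Of 7 processing enzymes of the pathway (Ctss, Ctsl, Ctsb, Ctsd, Lgmn, Ifi30 and Sppl2a), 0 were called in IR against Ctrl; on the adjusted p alone Sppl2a, which clears the last membrane stub of the invariant chain, was lower (-0.53, adjusted p = 0.00796) and Ctsd higher (0.40, adjusted p = 0.0177). Against IR, 6 passed as higher and Ctsd as lower in both Ab_IR and L_IR, with 0 called by both criteria, and 39.4% and 40.8% of all genes passed as higher in these comparisons. Ctss, the cathepsin that trims the invariant chain, was listed at 41.61, 57.25 and 46.33 FPKM in Ctrl, at 38.50, 42.84 and 44.24 in IR, at 80.30, 72.35 and 71.77 for Ab_IR and at 85.10, 84.05 and 77.81 for L_IR. As with Cd74, Ab_IR and L_IR libraries of Ctss lay above all Ctrl libraries, the difference passing in L_IR (0.77, adjusted p = 0.0135).

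Among 17 regulators of class II, 16 were tested and 1 was called lower and 1 higher in IR against Ctrl, where 4.57% and 3.03% of all genes were, so the share is near that of all genes. On the adjusted p alone 6 passed as lower and 3 as higher, beside 25.5% and 17.5% of all genes. Irf8, a factor of dendritic cell and monocyte development, was listed at 22.41, 24.75 and 27.99 FPKM in Ctrl and at 7.69, 7.65 and 7.34 in IR, a fall by 1.60 (adjusted p = 6.20e-05). Its excess over IR was 1.89 for Ab_IR (adjusted p = 6.38e-08), with 1.97 for L_IR (adjusted p = 2.81e-08), the only regulator called in either. Spi1, which encodes PU.1, went the other way, with means of 59.9 FPKM in Ctrl and 122.5 in IR (1.03, adjusted p = 5.01e-04). Rfx5, a subunit of the X box factor, was lower in IR on the adjusted p alone (-0.46, adjusted p = 0.0332), and Nfya, a subunit of the Y box factor, likewise (-0.47, adjusted p = 0.00132). The other subunits did not pass, with Rfxank at -0.03 (adjusted p = 0.774), Rfxap at -0.01 (0.950), Nfyb at -0.07 (0.580) and Nfyc at 0.02 (0.909), nor did Creb1, a factor of the CREB family, at -0.14 (0.237). Irf1 (-0.83, adjusted p = 5.05e-04), Jak2 (-0.50, adjusted p = 0.0141) and Ifngr1 (-0.19, adjusted p = 0.0290) also passed as lower in IR on the adjusted p alone. Irf4 (0.80, adjusted p = 1.66e-04) and Ifngr2 (0.44, adjusted p = 0.0289) passed as higher in IR on the adjusted p alone. Ifngr1 and Ifngr2, the chains of the interferon gamma receptor, thus went opposite ways, with Ctrl means of 84.6 and 6.33 FPKM. In L_IR against Ctrl 1 regulator was called, Irf4, at a mean of 15.2 against 5.70 FPKM (1.27, adjusted p = 1.15e-04). Of the surface turnover and costimulation genes (Marchf1, Marchf8, Cd80, Cd86, Cd40 and Cd83), 0 of 2 tested were called in IR against Ctrl, and Cd80, Cd86, Cd40 and Cd83 had means of at most 1.43 FPKM in every group.

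The non-members whose profile over the 12 libraries was most like the mean standardised profile of the 6 tested members were Irf1 (Pearson r = 0.990), Abca9 (0.985), Ptpro (0.983), Lrrc8c (0.980) and Zfp932 (0.980), out of 12693 genes. These correlations are descriptions over 12 libraries in 4 groups and carry no test. Irf1, an interferon regulatory factor that was also on the regulator list, was listed at 17.82, 20.37 and 21.16 FPKM in Ctrl, at 11.05, 10.20 and 10.78 in IR, at 19.19, 18.51 and 17.67 for Ab_IR and at 22.34, 21.96 and 20.65 for L_IR. Of the members, H2-Aa followed the mean profile most closely (r = 0.992), then H2-Eb1 (0.983), H2-Ab1 (0.968), H2-DMa (0.946), H2-DMb1 (0.833) and Cd74 (0.698).

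Summed levels of myeloid cell markers were lowest in IR, as the class II genes were, but single macrophage and monocyte markers went both ways. In bulk samples fewer cells of a type and less RNA per cell cannot be told apart. The summed level of 9 dendritic cell markers was 15.2 to 18.7 FPKM in Ctrl, 4.22 to 4.85 in IR, 15.3 to 16.7 for Ab_IR and 15.8 to 16.3 for L_IR. Of the 5 dendritic cell markers tested in IR against Ctrl, 3 were called lower, Cd209a (-2.12), Siglech (-1.54) and Itgax (-1.04), beside 4.57% of all genes. Clec9a passed as lower on the adjusted p alone (-0.96, adjusted p = 0.00167), and Clec10a did not pass. The untested Zbtb46, Xcr1 and Batf3 had means under 1 FPKM in every group, Zbtb46 at 0.76 in Ctrl and 0.16 in IR. Every marker on this list had a lower mean in IR than in Ctrl. The sum of 10 macrophage markers was 80.9 to 88.8 in Ctrl, 51.6 to 58.6 in IR, 88.7 to 96.2 in Ab_IR and 81.8 to 90.1 in L_IR. Of 8 tested in IR against Ctrl, 3 were called lower, Vcam1 (-1.35), Adgre1 (-1.28) and Csf1r (-1.02). Cd5l was called higher (1.38, adjusted p = 0.00657), Mrc1 passed as higher on the adjusted p alone (0.71, adjusted p = 7.54e-04), C1qb passed as lower (-0.40, adjusted p = 0.00614), and C1qa and C1qc did not pass. The sum of 5 monocyte markers was 251 to 287 in Ctrl, 140 to 145 in IR, 206 to 217 for Ab_IR and 225 to 227 for L_IR. Most of the difference between Ctrl and IR was Ly6c2, at a mean of 158.2 FPKM in Ctrl and 35.1 in IR (-2.14). Cx3cr1 was also called lower (-1.01) and Ms4a6c passed as lower (-0.36), whereas Ccr2 did not pass and F13a1 passed as higher, from 53.9 to 66.6 FPKM (0.31, adjusted p = 0.0468). The gate as the methods give it requires Sca-1 and c-Kit and excludes cells with Mac-1 or B220. Transcripts of other cell types were still listed at high levels in Ctrl, such as Ly6c2 at a mean of 158.2 FPKM and the plasma cell marker Jchain at 586.8. How many such cells the libraries held was not tested.

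The summed level of 12 B cell markers was 31.4 to 35.1 FPKM in Ctrl, 27.1 to 28.1 in IR, 46.0 to 46.4 for Ab_IR and 48.6 to 50.2 for L_IR. Cd79a and Cd79b made up most of it, with means of 13.3 and 13.4 FPKM in Ctrl and 14.9 and 8.23 in IR. In IR against Ctrl Cd79b passed as lower (-0.64, adjusted p = 0.00125) and Blnk, an adaptor of the B cell receptor, as higher (0.49, adjusted p = 0.0114), both on the adjusted p alone, and Cd79a did not pass. The markers Pax5, Ms4a1, Ebf1, Cr2 and Fcer2a had means under 1 FPKM in every group. T cell markers, 7 in all, summed to 14.8 to 15.6 in Ctrl, 9.49 to 11.3 in IR, 19.2 to 20.99 for Ab_IR and 29.8 to 30.7 for L_IR. The 6 plasma cell markers summed to 626 to 738 FPKM in Ctrl, 980 to 1004 in IR, 1077 to 1165 for Ab_IR and 1452 to 1476 for L_IR, so they did not fall with the class II genes in IR. The part of these cells in the class II values was not tested.

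Of 13 HSC and sort markers, Kit and Ly6a, both used in the gate, were well detected, with Ctrl means of 23.5 and 35.1 FPKM. Hoxb5, Fgd5 and Mecom, which mark long-term HSCs, had means of at most 0.23 FPKM in every group. Cd34 and Flt3, whose proteins the gate excludes, were listed at 18.99 to 20.65 and 9.13 to 12.07 FPKM in Ctrl. Both fell in IR, Cd34 to 3.66 to 3.91 and Flt3 to 0.96 to 1.22 FPKM, and stood at 16.82 to 18.26 and 7.45 to 7.57 in Ab_IR. In IR against Ctrl 5 of the 8 tested markers on this list were called lower, including Kit, Gata2, Cd34 and Flt3, beside 4.57% of all genes. Ly6a went the other way, to a mean of 58.6 FPKM in IR (0.75, adjusted p = 0.0145), and Hlf did not pass (0.0034, adjusted p = 0.983). The part of cells outside the gate in the class II values was not tested.

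**Figure D4:**
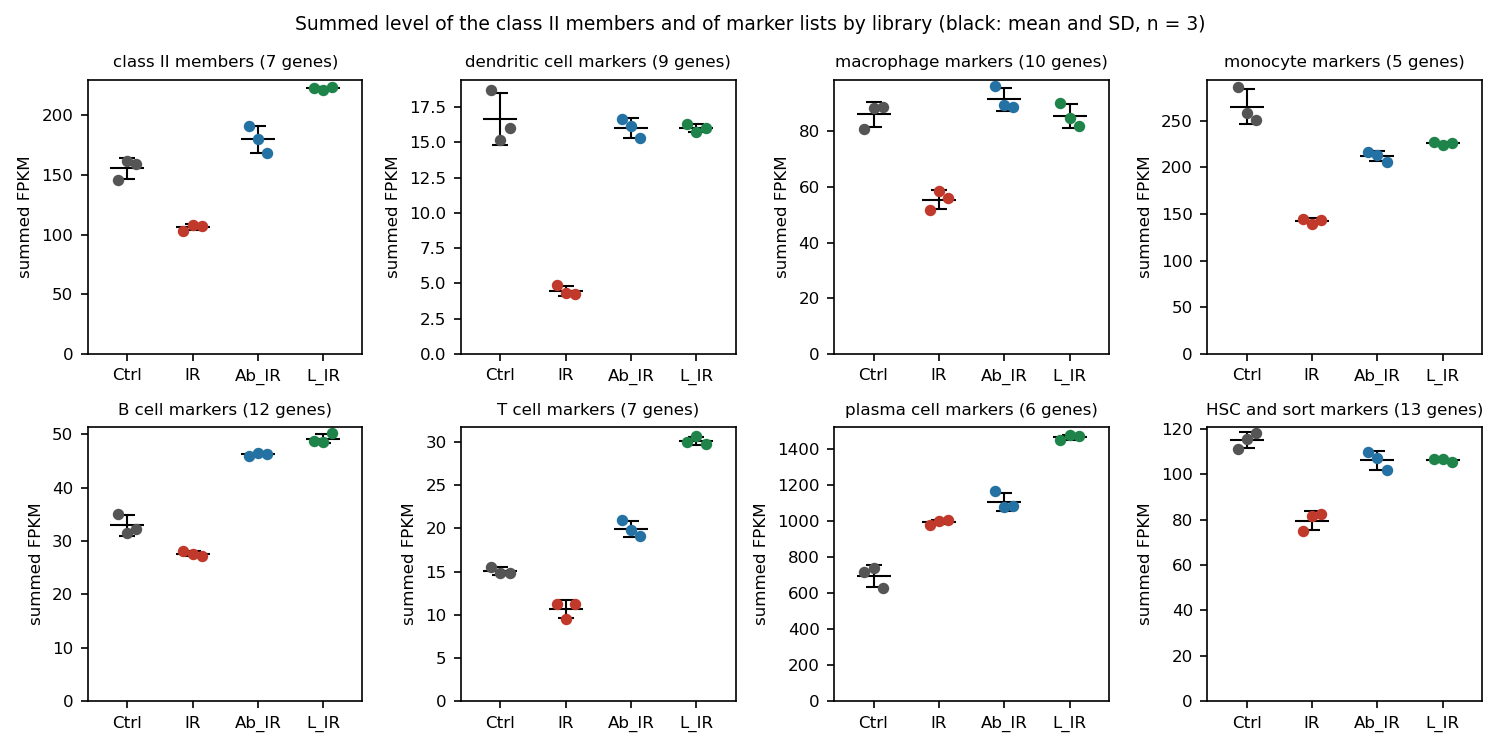
Summed FPKM of the 7 class II genes and of 7 marker lists in each library, on linear axes from 0, with black marks for the mean and SD (n = 3). The class II, dendritic cell, macrophage, monocyte and HSC lists are lowest in the IR libraries (dendritic cell markers 4.22 to 4.85), the B and T cell lists are lowest in IR and highest in L_IR, and the plasma cell list is lowest in Ctrl.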

How the data were processed

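RNA was measured in 12 libraries of cells sorted as HSCs, grouped by their titles into Ctrl, IR, Ab_IR and L_IR. Per the labels, RNA was taken with a micro-scale kit and made into stranded mRNA libraries, and the submitters' processing notes name fastp, HISAT2, StringTie and the GRCm38 (mm10) build. The study's methods instead name RSEM for quantification and a count-based test. The deposited values carry no unit in their headers and were read as FPKM computed by the authors, from their sums and their relation to gene length. They hold no whole-read steps, so depth is unknown and no counting interval is given.

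As FPKM are not counts, each pair of groups was fitted on the log2(FPKM + 1) scale with limma (version 3.58.1, R 4.3.3; empirical Bayes with a trend in mean level), and p-values were adjusted over all genes tested. The script was tested on simulated data. Ratios were tested by exact permutation (scipy 1.17.1), and figures drawn with matplotlib 3.10.9. The 104 listed genes were each found once. Text names the 7 members, genes of the class II and marker lists that were called or define a list, and the 5 genes most like the members' mean profile. The examples given from the other lists (Ctss, Sppl2a, Ctsd, the RFX and NF-Y subunits, Creb1, Ifngr1, Ifngr2, Jak2, H2-Oa and the uncalled markers with values) were picked after their values were seen. Some listed genes are not reported here by name. The members and lists were chosen with earlier results of these data known. Alternatives are given in the closing section.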

Additional observations from a re-analysis of the deposited data

How the results depend on the processing

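Of 564 refitted log2 fold changes of the 6 tested genes (other pseudocount, filters, scalings, spread models, terms and left-out libraries), 9 changed sign, 5 newly passed both criteria and 3 no longer did. All 9 sign changes were in values that had not passed. When the Nppa split entered the model, a fit that turns on Ctrl replicate 1 alone, 5 genes were called in Ab_IR against IR in place of 3, H2-Ab1 reaching 1.49 and H2-DMb1 1.23, and in L_IR against IR H2-DMb1 reached 1.29. Under the same term H2-Aa (0.053) and H2-Ab1 (0.034) turned positive in Ab_IR against Ctrl, as did H2-Ab1 in L_IR against Ctrl (0.38, adjusted p = 0.0259). H2-Ab1 in L_IR against Ctrl also turned to 0.068 with immunoglobulin genes left out. Leaving out each library in turn gave -0.20 to 0.11 for H2-Ab1 and -0.019 to 0.15 for H2-Aa in L_IR against Ctrl, and -0.11 to 0.0030 for H2-DMb1 in Ab_IR against L_IR. H2-Eb1 in Ab_IR against IR dropped to 0.99 with quantile normalization and with median ratio scaling, and H2-Ab1 there passed the fold limit with a pseudocount of 0.1 (1.02) and, just, without Ab_IR replicate 3 (1.003).

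The replicate block changed no call by both criteria, with 5 genes in IR against Ctrl, 3 in Ab_IR against IR and 4 in L_IR against IR, as without it. On the adjusted p alone it took H2-Aa (0.0604) and H2-DMa (0.0530) in Ab_IR against L_IR and Cd74 (0.164) in Ab_IR against Ctrl past 0.05. Deviations from the group mean correlated at -0.27 to 0.21 between libraries of the same number, and at -0.23 to 0.29 between libraries of unlike number. Within a group of 3 these deviations are tied to each other, so whether the numbers mark pairs cannot be told from them. With all 12 libraries in one fit, H2-Aa (0.167), H2-Ab1 (0.129) and H2-DMa (0.278) missed in Ab_IR against L_IR, whereas H2-DMb1 (0.00432 and 0.00377) passed as lower than Ctrl in Ab_IR and L_IR. Cd74 in Ab_IR against Ctrl missed with quantile normalization (0.160) and with immunoglobulin genes left out (0.206). Leaving those genes out moved the median of all genes from 0.06 to -0.07 in Ab_IR against IR and from 0.01 to -0.11 in Ab_IR against L_IR.

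Over all genes, a pseudocount of 0.1 gave 908 genes called lower in place of 552 in IR against Ctrl, and 1512 calls in either direction in place of 914 in Ab_IR against IR, 1294 in place of 756 in L_IR against IR and 165 in place of 65 in Ab_IR against L_IR. The split term gave 1960 in Ab_IR against IR, 1554 in L_IR against IR, 811 in place of 112 in Ab_IR against Ctrl and 876 in place of 325 in L_IR against Ctrl. In these last comparisons leaving out immunoglobulin genes gave 59 (35 higher, 24 lower, in place of 84 and 28) and 158 (100 and 58, in place of 249 and 76). In Ab_IR against Ctrl no filter gave 73, and leaving out an Ab_IR library 60 to 65. Quantile normalization gave 371 higher and 301 lower in L_IR against IR, in place of 497 and 259. The unknown depth limits what can be said of Ciita.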
